A study of Saccharomyces cerevisiae with 32 samples.

Results

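The 8 genes described here encode the replicative helicase of budding yeast and the proteins that load it onto DNA. They are MCM2 (YBL023C), MCM3 (YEL032W), MCM4 (YPR019W), MCM5 (YLR274W), MCM6 (YGL201C), MCM7 (YBR202W), CDC6 (YJL194W) and TAH11 (YJR046W), the gene of the yeast Cdt1 protein. They were chosen by name and function, not by a measured value, from 6225 genes on the array, and all 8 were among the 6205 genes tested. Transcript levels were measured in cultures of Saccharomyces cerevisiae that the pheromone alpha-factor had arrested in G1 for 2 h and that were then released, with a sample taken every 15 min from 0 to 105 min. The series title names the question, which is how the kinase Cdk1 regulates transcription factors of S phase.

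Both synchronised strains carried epitope tags on the same 4 transcription factors, so the tags are no difference between them. The control strain, WT (YBL320), carried HCM1-3HA and TOS4-3FLAG, together with YOX1-3V5 and YHP1-13MYC. The strain 4P (YBL289), which the submitters call a phosphomutant, carried hcm1-15A-3HA and tos4-9A-3FLAG, together with yox1-9A-3V5 and yhp1-13A-13MYC, with all 4 factors mutated together, so no difference between 4P and WT can be assigned to 1 of them. On each array the second channel was the common reference, RNA from an unsynchronised mid-log culture of strain MW836a, in which the 4 factors were wild type and untagged. Every value below is the log2 ratio of the synchronised sample over this reference, and every difference is 4P minus WT on that scale, given with its standard error (SE) from the fit. Each strain was followed in 2 time courses (replicates 1 and 2) with 1 array per time, which gave 32 arrays, and the dyes were swapped between the replicates. Nothing in the labels says that a replicate is a separate isolate of its strain, so the p values measure only the spread between arrays of 2 courses per strain. Except where means over whole courses are compared, the fit treats arrays of the same course as independent, although they come from the same culture.

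As background, Mcm2 to Mcm7 form a ring that is loaded in an inactive state around DNA at replication origins in late mitosis and G1, a step called licensing. The origin recognition complex and Cdc6, an ATPase of short life, receive the ring, which Cdt1 (Tah11) brings to the origin. Most of these genes are transcribed toward the end of mitosis and into G1, from promoters with an early cell cycle box. This element is bound by the activator Mcm1, and the homeodomain proteins Yox1 and Yhp1 repress transcription through it. Hcm1 is a forkhead activator of S phase, and Tos4 is a protein with a forkhead-associated domain, which is a different domain.

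Each of the 8 genes had 1 probe printed in 2 spots. Both spots were well above background in both channels on all 32 arrays, and no spot was saturated. Of 64 spot values per gene, 2 were marked as outliers for MCM2 and 1 each for MCM3 and MCM7. The array of 4P at 105 min in replicate 1 was the poorest of the set, with 1761 outlier-marked spots against a median of 9, and the 4P array at 15 min in replicate 1 lay on the same slide. On the first of these arrays MCM2 and MCM7 had 1 usable spot each, and on the second the 2 spots of MCM2 read 0.26 and 1.23 and those of MCM5 read -0.33 and 0.60. Slides largely coincided with genotype, and WT and 4P shared a slide within a replicate only at 45 min in replicate 1.

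Stage markers placed the samples in the cycle. The pheromone-induced gene FUS1 stood at 3.65 and 3.63 in WT and 3.66 and 3.42 in 4P at 0 min. The mitotic cyclin gene CLB2 had its highest mean at 45 min, at 1.86 and 2.07 in WT and 1.46 and 1.56 in 4P, and was above the reference again on all 4 arrays of 105 min. EGT2, a daughter-cell separation gene of M/G1, stood at -0.40 and -0.20 in WT but at -1.55 and -1.67 in 4P at 60 min (difference -1.31 ± 0.31 SE, limma with Benjamini-Hochberg adjustment, adjusted p = 0.0696), and the strains overlapped for EGT2 at 75 min. STE3, a receptor gene expressed in alpha cells, lay above the reference on all 16 WT arrays and lower in 4P, with a difference of -0.97 ± 0.19 SE at 0 min (limma, adjusted p = 0.0436). The part of either marker in the results below was not tested.

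**Figure D1:**
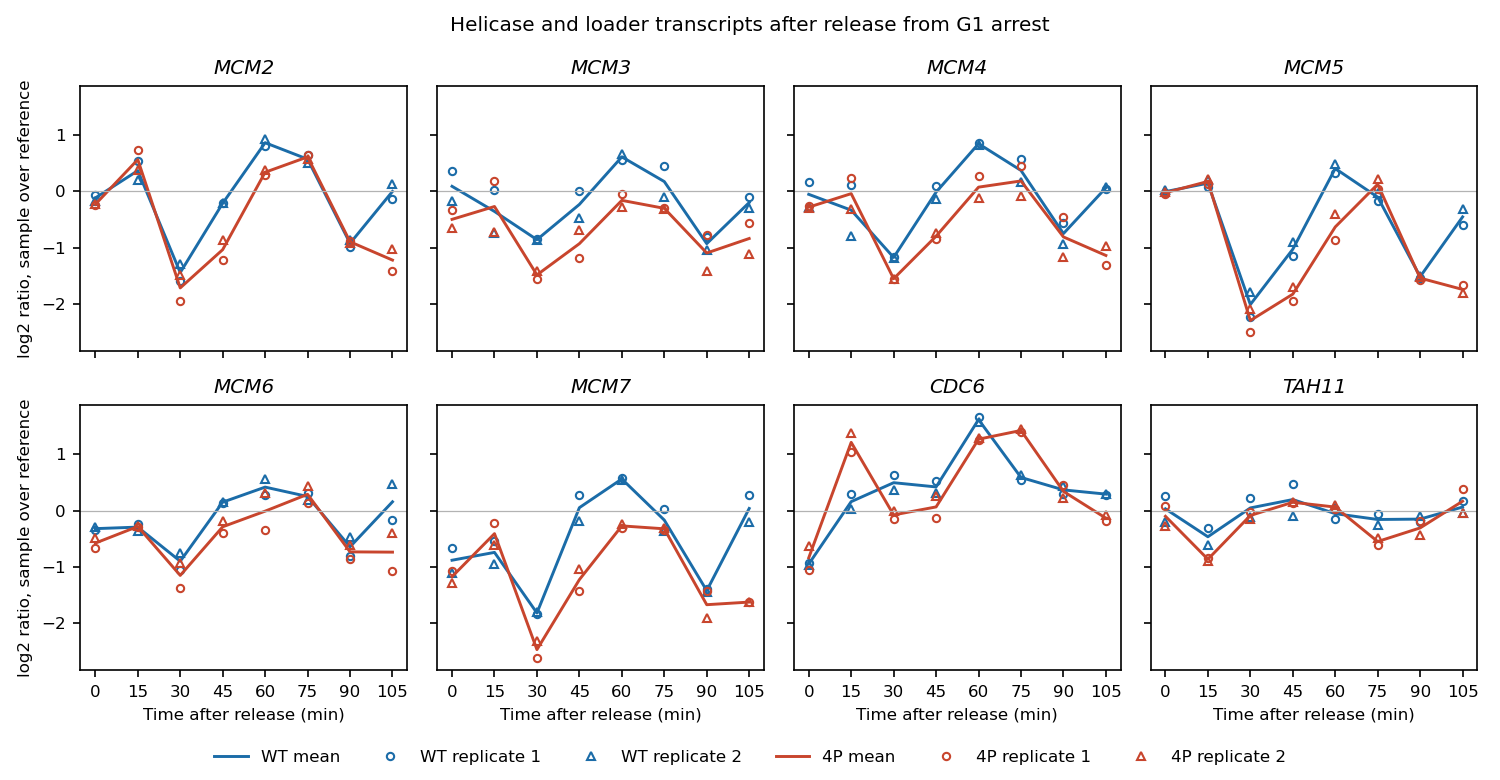
Log2 ratio of synchronised sample over reference (y axis) against minutes after release (x axis) for each of the 8 genes, with circles for replicate 1, triangles for replicate 2, and lines through the means of 2 arrays, blue for WT and red for 4P. MCM2, MCM4, MCM5 and MCM7 dip at 30 min and again at 90 min in WT with a maximum at 60 min, and at 105 min both red points lie below both blue points for all genes but TAH11.

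In WT, 5 of the 6 helicase genes fell from 0 to 30 min, where 4.43% of all genes fell, and all 6 rose from 30 to 60 min, where 5.17% rose. MCM6 was the exception in the first step (-0.58, adjusted p = 0.135). Change over the 8 times passed the limma F test (Benjamini-Hochberg adjustment over 6205 genes, at 0.05) for 7 of the 8 genes in WT and all 8 in 4P, where 35.6% and 40.4% of all genes passed. MCM5, whose product sits beside Mcm2 at the gap through which DNA enters the ring, had the widest swing of the 6. In WT it stood at -0.03 and 0.02 at 0 min, 0.08 and 0.21 at 15 min, -2.24 and -1.79 at 30 min, -1.15 and -0.90 at 45 min, 0.33 and 0.48 at 60 min, -0.18 and -0.03 at 75 min, -1.53 and -1.50 at 90 min, and -0.59 and -0.32 at 105 min. Both replicates went down from 15 to 30 min, up to 60 min and down again to 90 min, with the values at 30 min below those of every other time. From trough to peak this was 2.42 on the log2 scale, or 5.36-fold (adjusted p for change over time = 4.64e-10).

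MCM7, part of the Mcm4, Mcm6 and Mcm7 core with helicase activity in vitro, had a range of 2.38 in WT (5.22-fold). Its WT values were -0.66 and -1.10 at 0 min, -0.53 and -0.95 at 15 min, -1.84 and -1.80 at 30 min, 0.28 and -0.18 at 45 min, 0.57 and 0.55 at 60 min, 0.02 and -0.36 at 75 min, -1.40 and -1.45 at 90 min, and 0.28 and -0.20 at 105 min. By 45 min both replicates were above their own values at 0 min, which for MCM5 was not yet so.

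MCM2, whose product carries one of the nuclear localisation signals of the complex, ranged over 2.31 in WT (4.96-fold). It stood at -0.06 and -0.17 at 0 min, 0.54 and 0.20 at 15 min, -1.59 and -1.30 at 30 min, -0.21 and -0.21 at 45 min, 0.80 and 0.93 at 60 min, 0.64 and 0.50 at 75 min, -0.99 and -0.86 at 90 min, and -0.13 and 0.13 at 105 min. The troughs at 30 and 90 min lay below all other WT times in both replicates. MCM4, a main substrate of the Cdc7-Dbf4 kinase, ranged over 2.02 in WT between -1.17 at 30 min and 0.85 at 60 min. MCM3, whose product binds Cdc6 during loading, ranged over 1.54, and MCM6, whose product contacts Cdt1, over 1.32, the narrowest of the 6. Each of the 6 genes had its highest WT mean at 60 min.

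CDC6 followed another course. In WT it was lowest at the arrest, at -0.93 and -0.97, and then stood at 0.29 and 0.03 at 15 min, 0.63 and 0.36 at 30 min, 0.54 and 0.31 at 45 min, 1.66 and 1.58 at 60 min, 0.55 and 0.63 at 75 min, 0.29 and 0.44 at 90 min, and 0.29 and 0.30 at 105 min. It had no trough at 30 or 90 min, and its range of 2.57 (5.94-fold) was the widest of the 8. TAH11 was nearly flat in WT, between -0.47 at 15 min and 0.20 at 45 min, and its adjusted p for change over time was 0.167 (0.0422 with the replicate as a block). Ranked by range in WT among 6205 genes, CDC6 was number 139, MCM5 167, MCM7 173, MCM2 194, MCM4 255, MCM3 457 and MCM6 681, whereas TAH11 was number 2704. The median range of all genes was 0.61.

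Set in order of level, neighbouring times often overlapped. In WT the replicates overlapped at 1 of 7 neighbouring pairs of times for MCM5, 2 for MCM2, 3 for MCM7, 4 for MCM4, 5 for MCM3, MCM6 and CDC6, and 6 for TAH11. The order of the mean levels from high to low in WT was 60, 15, 0, 75, 105, 45, 90 and 30 min for MCM5, and 60, 45, 105, 75, 15, 0, 90 and 30 min for MCM7. The maximum at 60 min and the minimum at 30 min were thus shared by MCM5 and MCM7, while the ranks between them were not. MCM3 had its lowest WT mean at 90 min, at -0.93, beside -0.86 at 30 min, and the replicates of these times overlapped.

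In 4P several of these genes had their highest value after 30 min at 75 min. MCM5 in 4P stood at -0.04 and -0.004 at 0 min, 0.14 and 0.22 at 15 min, -2.50 and -2.09 at 30 min, -1.96 and -1.70 at 45 min, -0.86 and -0.40 at 60 min, 0.04 and 0.22 at 75 min, -1.57 and -1.51 at 90 min, and -1.67 and -1.81 at 105 min. After the trough it was highest at 75 min in both 4P courses, where both WT courses were highest at 60 min. MCM4 and CDC6 were likewise highest at 75 min in both 4P courses and at 60 min in both WT courses. For MCM4 in 4P, however, the replicates of 75 and 60 min overlapped, with means of 0.19 and 0.08. MCM2 in 4P stood at -0.23 and -0.22 at 0 min, 0.75 and 0.39 at 15 min, -1.94 and -1.49 at 30 min, -1.21 and -0.86 at 45 min, 0.30 and 0.39 at 60 min, 0.65 and 0.58 at 75 min, -0.88 and -0.91 at 90 min, and -1.42 and -1.03 at 105 min. Its peak after the trough was also at 75 min in both 4P courses.

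MCM7 did not return to the reference level in 4P. It stood at -1.07 and -1.28 at 0 min, -0.21 and -0.61 at 15 min, -2.62 and -2.32 at 30 min, -1.42 and -1.03 at 45 min, -0.30 and -0.24 at 60 min, -0.34 and -0.30 at 75 min, -1.44 and -1.91 at 90 min, and -1.62 and -1.63 at 105 min. All 16 of its 4P values were below 0. MCM3 had its highest 4P mean at 60 min, at -0.16, and its lowest at 30 min, at -1.49. MCM6 in 4P had its highest mean at 75 min, at 0.29. TAH11 changed over time in 4P (adjusted p = 0.0015), between -0.87 at 15 min and 0.17 at 105 min.

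Out of the arrest, the same genes changed in both strains. From 0 to 30 min, MCM2, MCM3, MCM4, MCM5 and MCM7 fell and CDC6 rose in WT, where 4.43% of all genes fell and 7.03% rose, and the same 6 genes passed in the same directions in 4P, where 4.16% fell and 5.91% rose. For CDC6 the courses between these times differed. Its mean went from -0.95 at 0 min to 0.16 at 15 min and 0.50 at 30 min in WT. In 4P it went from -0.84 to 1.21 and then down to -0.08. From 0 to 30 min MCM5 fell by 2.01 on the log2 scale in WT and by 2.28 in 4P. For the difference between the strains in this step, no gene of the 8 and none of 6205 passed (0%), and 1 of the 8, CDC6, had an unadjusted p below 0.05 against 32 of all genes. Between 30 and 60 min, all 6 helicase genes and CDC6 rose in each strain, where 5.17% of all genes rose in WT and 5.21% in 4P. The rise of MCM5 was 2.42 in WT and 1.67 in 4P, a difference of -0.76 ± 0.24 SE that did not pass over all genes (0% passed, adjusted p = 1).

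At 0 min none of the 8 genes differed between the strains by the test, where 0.113% of all genes did. The differences of all 6 helicase genes were below 0, with a median of -0.24 beside 0.01 for all genes. Both 4P values lay below both WT values for MCM2, MCM3 and MCM6, as was so for 916 of 6175 genes. At 30 min, the trough, none of the 8 genes passed either (0.0967% of all genes did). All 8 differences were below 0 there, with a median of -0.33 beside -0.01 for all genes. The strains did not overlap at 30 min for MCM3, MCM4, MCM7 and CDC6, as was so in this direction for 27.8% of all genes. MCM7 at 30 min was at -1.84 and -1.80 in WT and -2.62 and -2.32 in 4P (difference -0.65 ± 0.21 SE, limma, adjusted p = 0.281). The share at 30 min was high over all genes, so a count of 4 of 8 is not read as a result about these genes.

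During the rise from that trough, 1 helicase gene at 45 min and another at 60 min were lower in 4P by the test. Since each array averages a whole culture, fewer cells at a stage and less RNA per cell cannot be told apart. At 45 min MCM7 stood at 0.28 and -0.18 in WT and at -1.42 and -1.03 in 4P. The strains did not overlap, and MCM7 was 2.43-fold lower in 4P (difference -1.28 ± 0.21 SE, limma with Benjamini-Hochberg adjustment, adjusted p = 0.00927), the only one of the 8 to pass at this time, where 0.145% of all genes were lower. Within the slide that held both strains, in replicate 1, the difference was -1.71, and in replicate 2, across slides, it was -0.85. MCM2 differed by -0.82 ± 0.18 SE and MCM5 by -0.80 ± 0.17 SE, both at adjusted p = 0.061. With the replicate as a block, MCM2 passed at adjusted p = 0.033 and MCM5 at 0.00386. For 7 of the 8 genes, all but TAH11, both 4P values were below both WT values, as was so for 22.7% of all genes. The median difference of the 6 helicase genes was -0.79, beside -0.01 for all genes. Without the replicate 1 array of WT or of 4P at 45 min, MCM7 no longer passed (-1.05 and -1.09, adjusted p = 0.305 and 0.309).

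At 60 min, the WT peak, MCM5 stood at 0.33 and 0.48 in WT and at -0.86 and -0.40 in 4P. It was 2.06-fold lower in 4P (difference -1.04 ± 0.17 SE, limma, adjusted p = 0.00333), where 0.435% of all genes were lower. MCM7 stood at 0.57 and 0.55 against -0.30 and -0.24, a difference of -0.84 ± 0.21 SE (adjusted p = 0.117, and 0.04 with the replicate block). The strains did not overlap for MCM2, MCM3, MCM4, MCM5, MCM7 and CDC6, 6 of the 8 genes, beside 18.5% of all genes. MCM6 was the exception among the helicase genes, at 0.28 and 0.56 in WT and -0.34 and 0.32 in 4P. The median difference of the 6 helicase genes was -0.77 at this time, with -0.01 for all genes. MCM5 no longer passed without 4P replicate 1 (-0.81, adjusted p = 0.131) or WT replicate 2 (-0.97, adjusted p = 0.0854) of 60 min.

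At 75 min none of the 6 helicase genes passed the test between the strains, while 2.3% of all genes were lower and 2.68% higher in 4P. Of the 6 differences, 3 were below 0 and 3 above. MCM3 was lower in 4P without overlap, at 0.45 and -0.10 in WT and -0.29 and -0.31 in 4P, and MCM5 was higher without overlap. Of 6205 genes, 1728 were lower and 1867 higher in this sense. MCM2 stood at 0.64 and 0.50 in WT and 0.65 and 0.58 in 4P, with a difference of 0.04 and a 95% interval from -0.33 to 0.40. MCM5 was at -0.18 and -0.03 in WT and 0.04 and 0.22 in 4P, so the order of the strains was turned from 60 min, with a difference of 0.23 ± 0.17 SE (adjusted p = 0.435). At 90 min, the next trough, no gene of the 8 had strains that did not overlap (18% of all genes were lower and 19.4% higher in this sense), and none passed the test (0.0322% of all genes did), nor had any an unadjusted p below 0.05. The 90 min values of MCM5 were -1.53 and -1.50 in WT and -1.57 and -1.51 in 4P, a difference of -0.03 with a 95% interval from -0.38 to 0.33.

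**Figure D2:**
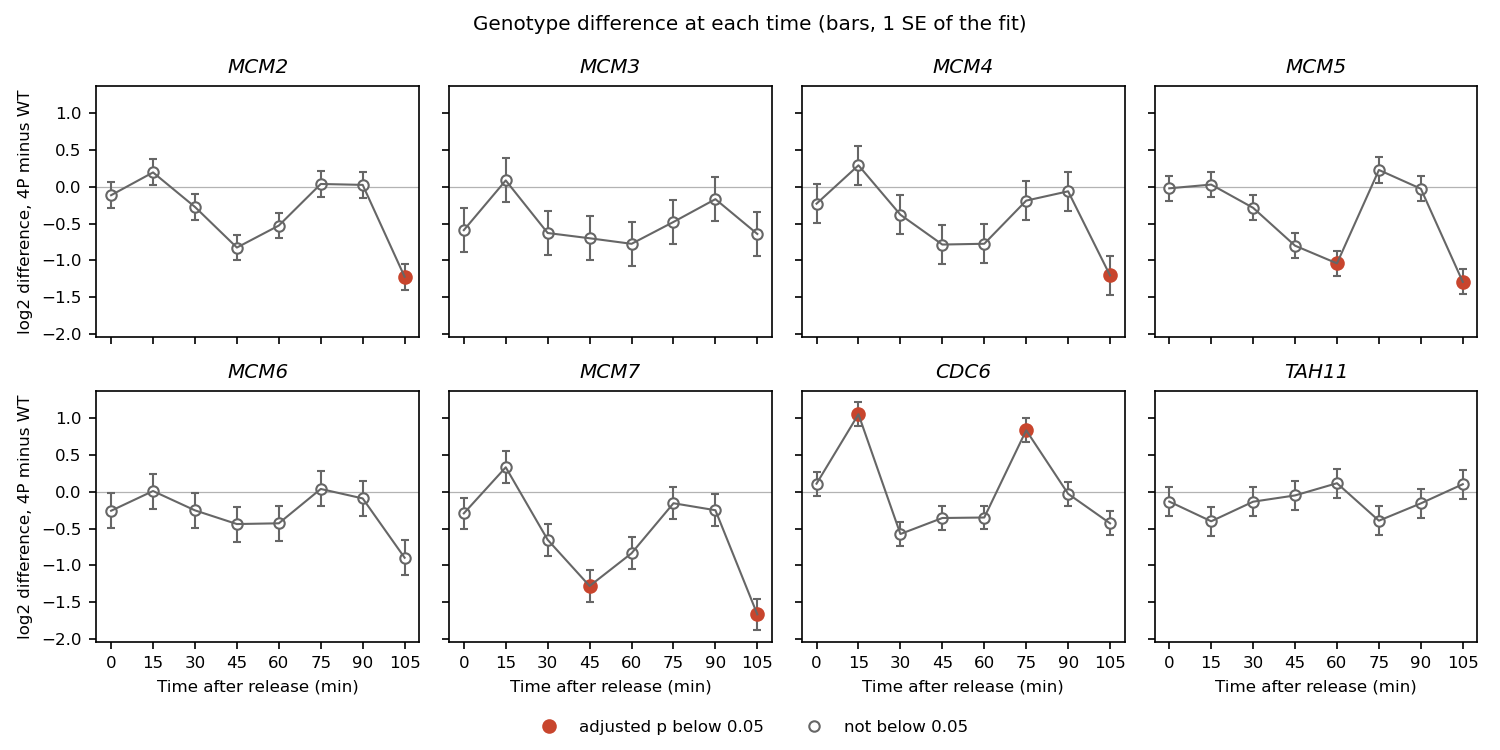
Difference 4P minus WT in log2 ratio (y axis) at each time after release (x axis) for the 8 genes, with bars of 1 SE and filled red points where the adjusted p is below 0.05. The helicase genes lie below 0 at 45, 60 and 105 min and near 0 at 90 min, whereas CDC6 is above 0 at 15 and 75 min and TAH11 passes at no time.

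CDC6 was higher in 4P at 2 times. At 15 min it stood at 0.29 and 0.03 in WT and at 1.05 and 1.38 in 4P. It was 2.08-fold higher in 4P (difference 1.05 ± 0.16 SE, limma, adjusted p = 0.00522), where 0.0967% of all genes were higher, and no other gene of the 8 passed. At 75 min it was at 0.55 and 0.63 in WT and at 1.41 and 1.45 in 4P, 1.79-fold higher (difference 0.84 ± 0.16 SE, adjusted p = 0.0094). At 60 min, by contrast, both 4P values of CDC6, 1.25 and 1.29, were below the WT values of 1.66 and 1.58, without passing (adjusted p = 0.92). Stage markers moved at these times too. CLB2 at 15 min was at -1.71 and -1.31 in WT and -0.90 and -0.40 in 4P (0.86 ± 0.22 SE, adjusted p = 0.0968), and the G1 cyclin gene CLN2 at 75 min was at 1.51 and 1.48 in WT and 0.50 and 0.77 in 4P (-0.86 ± 0.25 SE, adjusted p = 0.0538). Their part in the CDC6 differences was not tested. Without the replicate 1 array of 4P at 15 min, which lay on slide 1, the 15 min difference was 1.22 (adjusted p = 0.00876). The call at 15 min was lost without WT replicate 2 (0.92, adjusted p = 0.149) and with the slide as a fixed term (0.94, adjusted p = 0.465), and that at 75 min with the slide term (0.68, adjusted p = 0.182) and without WT replicate 1, 4P replicate 1 or 4P replicate 2 of that time (0.80 to 0.86, adjusted p up to 0.167).

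The widest separation came at 105 min. MCM7 stood at 0.28 and -0.20 in WT and at -1.62 and -1.63 in 4P. It was 3.17-fold lower in 4P (difference -1.67 ± 0.21 SE, limma with Benjamini-Hochberg adjustment, adjusted p = 0.000244). MCM5 stood at -0.59 and -0.32 in WT and at -1.67 and -1.81 in 4P, 2.45-fold lower (-1.29 ± 0.17 SE, adjusted p = 0.000292). For both genes every 4P value was more than 1 log2 unit below every WT value. MCM2 stood at -0.13 and 0.13 in WT and at -1.42 and -1.03 in 4P, 2.33-fold lower (-1.22 ± 0.18 SE, adjusted p = 0.000791). MCM4 stood at 0.05 and 0.08 against -1.32 and -0.96 (-1.20 ± 0.27 SE, adjusted p = 0.0492), close to the threshold.

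These 4 helicase genes were the members that passed at 105 min, where 0.306% of all genes were lower in 4P. MCM6 stood at -0.16 and 0.48 in WT and at -1.08 and -0.39 in 4P, a difference of -0.90 ± 0.24 SE (adjusted p = 0.146, and 0.0108 with the replicate block). MCM3 stood at -0.10 and -0.30 in WT and -0.56 and -1.11 in 4P (-0.64 ± 0.30 SE, adjusted p = 0.575). Both genes were lower in 4P in each replicate, so all 6 helicase genes had strains that did not overlap, as did CDC6, at 0.29 and 0.30 in WT and -0.18 and -0.08 in 4P (-0.43 ± 0.16 SE, adjusted p = 0.426). For 14% of all genes both 4P values lay below both WT values at this time. TAH11 was the member without a shift, with a difference of 0.10 and a 95% interval from -0.30 to 0.51. The median difference of the 6 helicase genes was -1.21, beside -0.002 for all genes.

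The 4P array of replicate 1 at 105 min was the poor one described above. Without it, the differences were -1.67 for MCM7 (adjusted p = 0.00439), -1.36 for MCM5 (adjusted p = 0.00325), -1.03 for MCM2 (adjusted p = 0.0449) and -1.03 for MCM4 (adjusted p = 0.835), so that of the 4 genes MCM4 lost its call here. The call of MCM4 was also lost on leaving out other arrays, 21 of the 32 in all, and was kept in 5 of 11 other settings. With the slide as a fixed term, MCM7 (-1.80, adjusted p = 0.0186) and MCM5 (-1.44, adjusted p = 0.00261) passed, while MCM2 (-1.29, adjusted p = 0.133) and MCM4 (-0.90, adjusted p = 1) did not. None of the 9 stage markers passed at 105 min, but some of them did not overlap between the strains. CLB2, at 1.05 and 1.81 in WT and 1.57 and 1.09 in 4P, overlapped, and EGT2 was at -2.71 and -2.62 in WT and -2.66 on the 1 array of 4P that measured it. CLN2 was at -0.74 and -1.07 in WT and -0.20 and -0.62 in 4P (0.50 ± 0.25 SE, adjusted p = 0.645), and the histone gene HTB1 at -0.25 and -0.38 in WT and 0.01 and 0.18 in 4P (0.41 ± 0.16 SE, adjusted p = 0.437), so both were higher in 4P in each replicate. Their changes from 75 to 105 min differed between the strains by 1.35 ± 0.36 SE for CLN2 and 0.85 ± 0.23 SE for HTB1 (adjusted p = 0.128 and 0.13). CDC20, a gene of mitosis described below, passed at 105 min. At 90 min CLB2 was at 0.48 and 0.77 in WT and -0.09 and 0.06 in 4P (difference -0.64 ± 0.22 SE, adjusted p = 0.461). The part of cycle timing in the helicase differences was not tested.

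**Figure D3:**
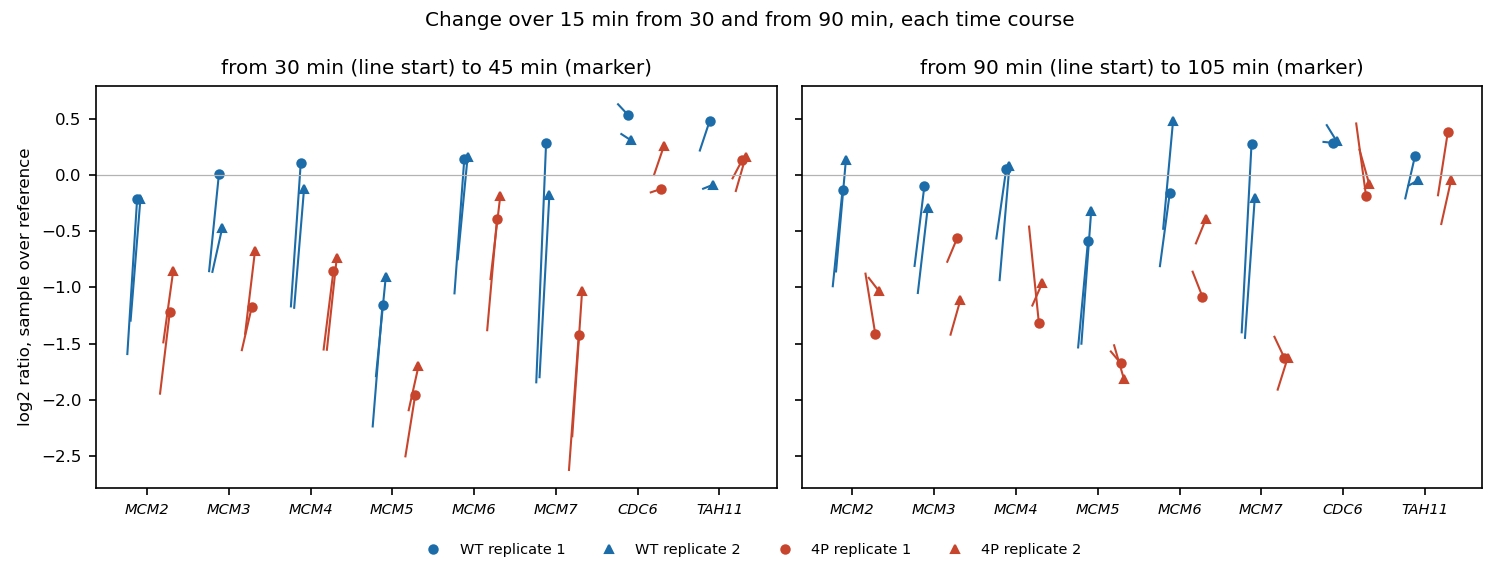
Change in log2 ratio (y axis) over 15 min for each gene (x axis) from 30 to 45 min (left) and from 90 to 105 min (right), with a line from the earlier value to a marker at the later one, circles for replicate 1 and triangles for replicate 2, WT in blue and 4P in red. From 90 to 105 min all WT lines of the 6 helicase genes run up. The 4P lines of MCM2 and MCM5 run down in both replicates, and those of MCM3 run slightly up in both. For MCM4, MCM6 and MCM7 the 4P lines run down in replicate 1, whose 105 min array was the poorest, and slightly up in replicate 2.

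Between 90 and 105 min MCM2, MCM5 and MCM7 rose in WT, while MCM3, MCM4 and MCM6 did not pass (0.73, 0.81 and 0.80, adjusted p = 0.386, 0.159 and 0.0936). This interval, like that from 30 to 45 min, was picked after the values had been seen. In WT, MCM7 went from -1.40 and -1.45 at 90 min to 0.28 and -0.20 at 105 min, a rise of 1.46 ± 0.21 SE (limma, adjusted p = 0.000157). MCM5 rose by 1.06 (adjusted p = 0.000424) and MCM2 by 0.92 (adjusted p = 0.0024), and these 3 of the 8 passed in WT, where 0.983% of all genes rose. In 4P the same step was 0.05 for MCM7, -0.20 for MCM5 and -0.33 for MCM2, and none of the 8 passed, where 1.51% of all genes rose and 2.4% fell. The difference between the strains in this step was -1.42 ± 0.30 SE for MCM7, -1.27 ± 0.24 SE for MCM5 and -1.25 ± 0.25 SE for MCM2. None of these, and no gene of 6205, passed over all genes (0%, smallest adjusted p of the 8 = 0.164), although 5 of the 8 had an unadjusted p below 0.05, against 177 of all genes. In the earlier step from 30 to 45 min, MCM2, MCM4, MCM5, MCM6 and MCM7 rose in WT (1.85% of all genes did) and MCM2, MCM6 and MCM7 in 4P (3.11% did), and the strain difference of that step passed for none of the 8 and no other gene (0%, 2 of the 8 and 46 of all genes with an unadjusted p below 0.05).

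From 75 to 105 min, the change was more negative in 4P than in WT for 4 of the 8 genes. Of these, MCM7 did not fall in WT, with a change of 0.21 that did not pass. MCM2, MCM4, MCM5, MCM6, MCM7 and CDC6 fell in 4P, where 12.6% of all genes fell, and TAH11 rose by 0.72 ± 0.20 SE (adjusted p = 0.0117, with 9.33% of all genes rising). In WT only MCM2 passed, with a fall of 0.57 (adjusted p = 0.0474), where 4.69% of all genes fell, and this call was lost on leaving out any of 20 of the 32 arrays and under 4 of 11 other settings. The difference of the steps passed for MCM5 (-1.52 ± 0.24 SE, adjusted p = 0.00831), CDC6 (-1.26 ± 0.23 SE, adjusted p = 0.0113), MCM2 (-1.26 ± 0.25 SE, adjusted p = 0.0222) and MCM7 (-1.51 ± 0.30 SE, adjusted p = 0.0222), where 0.29% of all genes were lower. For CDC6 this rests on the higher 4P level at 75 min described above as well as on 105 min. Several single arrays carried these calls, since the count of 4 went to 0 without WT replicate 1 or 4P replicate 2 of 75 min or WT replicate 2 of 105 min, to 1 without 4P replicate 1 of 75 or 105 min, and to 2 without WT replicate 2 of 75 min.

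Over all 8 times, the strain difference itself changed with time for MCM5 (adjusted p = 0.0168), MCM7 (adjusted p = 0.0453) and CDC6 (adjusted p = 0.0036) in the limma F test of the interaction. These were 3 of the 5 genes that passed among 6205 (0.0806%), and 253 genes had an unadjusted p below 0.05. MCM2 stood at adjusted p = 0.079 (0.0335 with the replicate block). Of 11 other settings, the interaction call was kept in 7 for MCM5, 9 for MCM7 and 10 for CDC6. The call of MCM5 was lost without WT replicate 2 of 60 or 105 min or 4P replicate 2 of 75 min (adjusted p of 0.0621, 0.0751 and 0.0595), and that of MCM7 on leaving out any of 22 of the 32 arrays (up to 0.143). CDC6 passed on leaving out each array in turn (up to 0.0224). The mean over the whole course was lower in 4P for 7 of the 8 genes, by -0.60 ± 0.12 SE for MCM7 and by -0.29 to -0.49 for the other 5 helicase genes, with 2 courses per strain. None of the 8 passed in that comparison (0.0161% of all genes did), 5 had an unadjusted p below 0.05 (667 of all genes), and with the replicate block MCM2, MCM3, MCM4, MCM5 and MCM7 passed (adjusted p from 0.0108 to 0.0321), where 644 of 6205 genes did.

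Among themselves, the helicase genes ran closely together and the loaders did not join them. Over the 32 arrays, which share the reference and the sampling times, Pearson's r between pairs of the 6 helicase genes ran from 0.69 to 0.93 over 15 pairs. It was highest for MCM2 with MCM5 (0.932) and MCM4 with MCM7 (0.928), and lowest for MCM3 with MCM6 (0.686). CDC6 correlated with the 6 at 0.26 to 0.53, and TAH11 at -0.43 to 0.08. These values are given as descriptions, with no test.

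Outside the 8 genes, HST4, a histone deacetylase gene of the sirtuin family, had the course most like the mean of MCM2 to MCM7, with r = 0.891 over 32 arrays among 5721 genes measured on all of them. MSA1 (0.878), a regulator of G1 transcription, followed, then a feature listed as TC19329 (0.856), then DBF2 (0.831), a kinase gene of the mitotic exit network, and RGA1 (0.828). At 105 min HST4 was lower in 4P by -1.55 ± 0.26 SE (limma, adjusted p = 0.00337) and DBF2 by -1.28 ± 0.13 SE (adjusted p = 2.1e-05), whereas MSA1 differed by -1.02 ± 0.23 SE (adjusted p = 0.0631), TC19329 by -0.70 ± 0.31 SE (adjusted p = 0.542) and RGA1 by -0.39 ± 0.19 SE (adjusted p = 0.593). The courses most like CDC6 were those of YIR020C (0.788), YGP1 (0.782) and YJL213W (0.748), and those most like TAH11 were of MET30 (0.922), BPL1 (0.897) and NUP100 (0.881). Of the 3 nearest to CDC6, YGP1 was lower in 4P at 105 min (-1.48 ± 0.30 SE, adjusted p = 0.0262), and YIR020C (-0.20) and YJL213W (-0.08) did not pass. None of the 3 nearest to TAH11 passed between the strains at 105 min, the highest difference in size being -0.20 for NUP100. All of these genes were picked by likeness over the 32 arrays, which include those of 105 min. Their differences at 105 min are thus not independent of the choice and lend no separate support.

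**Figure D4:**
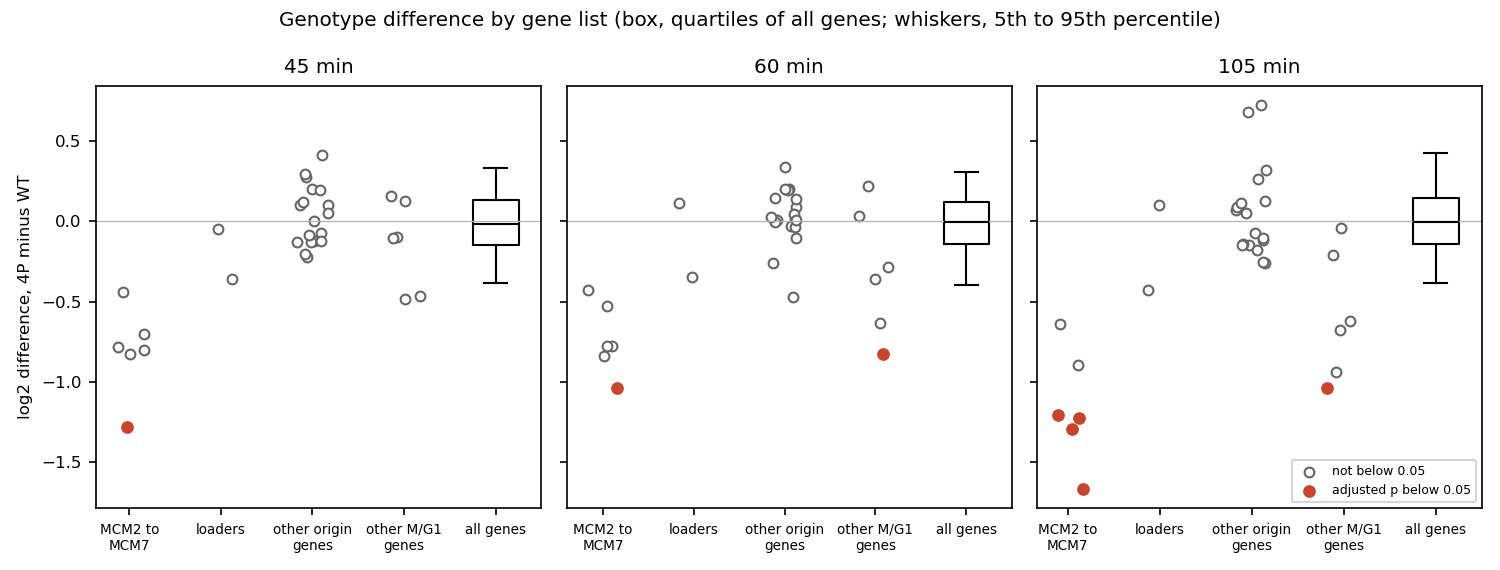
Difference 4P minus WT in log2 ratio (y axis) at 45, 60 and 105 min for single genes of each list (x axis), filled red where the adjusted p is below 0.05, with a box of the quartiles and whiskers from the 5th to the 95th percentile of all 6205 genes. The 6 helicase genes lie below the lower whisker in all 3 panels, the 18 other origin genes scatter around 0, and the 6 other M/G1 genes are spread between.

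The other genes of origin licensing and firing did not follow the helicase. Of 18 such genes (ORC1 to ORC6, MCM10, CDC45, SLD2, SLD3, SLD5, SLD7, DPB11, PSF1, PSF2, PSF3, CDC7 and DBF4), 9 passed the test over time in WT and 10 did in 4P, beside 35.6% and 40.4% of all genes. CDC45, whose product joins the loaded ring to form the active helicase, had its highest mean at 15 min in both strains. It stood at 2.04 in WT and 1.95 in 4P at that time. In WT the 6 helicase genes had their highest means at 60 min. In 4P, however, MCM5 also had its highest mean at 15 min, at 0.18, and the 15 min replicates of MCM2 overlapped those of its highest mean at 75 min. SLD2, needed for origin firing, was also highest at 15 min in WT, at 1.61. None of the 18 differed between the strains at any of the 8 times, and none passed the interaction test, where 1 had an unadjusted p below 0.05. Their median difference was 0.03 at 45 min, 0.02 at 60 min and -0.01 at 105 min.

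Of 6 other genes with an early cell cycle box or Mcm1 sites that are expressed at M/G1 (CLN3, SWI4, SPO12, CDC20, FAR1 and SIC1), each of the 6 passed the test over time in both strains. None passed the interaction test, but all 6 had an unadjusted p below 0.05 in it, as 253 of all genes did. The strain difference of the change from 75 to 105 min passed for SPO12 (-1.60), CDC20 (-1.25) and FAR1 (-1.80), at adjusted p = 0.0222, 0.0357 and 0.0222, in the direction of the helicase genes. At 60 min SIC1, the Cdk inhibitor gene, was at 1.07 and 1.24 in WT and 0.11 and 0.55 in 4P (-0.83 ± 0.18 SE, adjusted p = 0.0398), and its mean was highest at 60 min in WT and at 75 min in 4P. At 75 min SPO12 (0.92 ± 0.22 SE, adjusted p = 0.0291) and FAR1 (0.87 ± 0.23 SE, adjusted p = 0.0371) were higher in 4P, the direction of CDC6 at that time. At 105 min CDC20, the anaphase activator gene, was lower in 4P (-1.04 ± 0.19 SE, adjusted p = 0.00861), and the differences of all 6 were below 0, with a median of -0.65. FAR1 lacked a value on the 4P array of replicate 1 at 105 min.

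The factors that act on the early cell cycle box were measured too. YHP1 was lower in 4P at 30 min (-0.88 ± 0.16 SE, adjusted p = 0.0255), 45 min (-0.85 ± 0.16 SE, adjusted p = 0.0263) and 90 min (adjusted p = 0.0486). YOX1 stood at 1.54 and 0.99 in WT and at 0.02 and -0.55 in 4P at 30 min (-1.53 ± 0.40 SE, adjusted p = 0.231). MCM1 stood at -0.19 and -0.32 in WT and at -1.06 and -0.55 in 4P at 105 min (-0.55 ± 0.18 SE, adjusted p = 0.297). Both YOX1 and YHP1 carry tags in WT and 4P and mutations in 4P, and their probes were not checked for changed bases.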

How the data were processed

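Scans were read with Agilent Feature Extraction, whose version the submitters' processing notes give as 10.7.1.1. Per the file headers the deposited files hold median signal and background intensity in each channel, a log10 ratio of red over green, and quality marks. The table of the whole series that the authors deposited holds log2 values, with column medians from -0.04 to 0.02. These correlated with the scanner's ratio on each array, as sample over reference, with r between 0.961 and 0.999, and their normalisation and centring are not given in the sources used here.

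Median intensities were background-corrected (normexp, offset 50) and loess-normalised in limma 3.58.1 (R 4.3.3), with control and outlier-marked spots at weight 0 and outlier-marked spots then missing. Ratios were turned to sample over reference, and 2 spots per probe and the probes of a gene were averaged. Probes well above background in the sample channel on both arrays of at least 1 group were kept (6236 probes, 6205 genes). Group means of all 32 arrays were fitted with 1 shared spread, and p values were adjusted by Benjamini-Hochberg over 6205 genes per contrast at 0.05. Over all genes, the SE of a difference had a median of 0.19, and 2 arrays per group limit this precision. The scripts were tested on simulated data. Depth does not apply to arrays. Signal was 6.67 to 81.5 times background in the sample channel.

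The design text makes each replicate number 1 time course and 1 dye orientation. The fit with that number as a block is given beside some of the results whose call it changes. It is not given beside the changes from one time to another or their strain differences, some of whose calls it also changes. The counts of genes passing under this block are given with the other settings at the end. Deviations of the same number in WT and 4P correlated at 0.05 to 0.372 per time. Between times within a strain they correlated at -0.00691 to 0.749 in WT and at -0.0119 to 0.594 in 4P. Arrays of the same course were thus not fully independent. Alternatives were other background, normalisation and filter settings, the scanner's and deposited ratios, blocks by replicate, course and slide, and leaving out arrays. The members, gene lists and named genes (all 8 members, the genes most like them over the arrays, and the listed genes that passed) were chosen with earlier results of these data known. Gene names came from the array and a RefSeq table of another build, so no coordinates are given, and promoters were not analysed here.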

Additional observations from a re-analysis of the deposited data

Results flagged for a closer look

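Several results were picked out because the effect of time differed between the strains by a test of the difference itself. The change from 75 to 105 min in 4P minus that in WT was -1.26 for MCM2, -1.52 for MCM5, -1.51 for MCM7 and -1.26 for CDC6 on the log2 scale. The interaction of strain and time had adjusted p values of 0.0168 for MCM5, 0.0453 for MCM7 and 0.0036 for CDC6 (limma F test). With 2 arrays per group, no array could be tested as an outlier within its group.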

How the results depend on the processing

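None of the strain differences that passed at single times changed sign under any alternative. For counts and adjusted p values a change of direction was not assessed. The counts over the 8 genes for change over time (7 in WT, 8 in 4P), and for the rise from 30 to 60 min (7 in each strain), stayed within 1 of these under all 11 other settings. With the scanner's log ratios, 0 genes passed for the interaction (3 in the report's fit), at 15, 45 and 60 min between strains (1 each) and for WT from 75 to 105 min (1); the deposited values gave 0 at the same times and for that step. Median centring gave 0 at 60 min and for that WT step, and an offset of 0 gave 0 for the WT step. The replicate block gave 3 at 45 min, 2 at 60 min, 5 for the course mean, 5 for 4P from 30 to 45 min, 5 for WT from 90 to 105 min and 1 for the strain difference of that step. It also gave 8 for change over time in WT, 4 for the interaction, 5 at 105 min, 7 for each strain from 0 to 30 min and 5 for the strain difference from 75 to 105 min, and left the other counts over the 8 genes as they were. The block by time course gave 2 at 30 min (MCM7 and CDC6), 3 at 45 min, 2 at 60 min, and 5, 5 and 2 for those steps, with 1 for 4P from 90 to 105 min. The slide as a fixed term gave 0 at 15 and 75 min, 2 at 45 min, 2 at 105 min (4 in the report), 5 for 4P from 30 to 45 min and 1 for the strain difference from 90 to 105 min. The slide as a random block (correlation 0.27) gave 3 at 45 min, and 5, 5 and 3 for the steps from 30 to 45 min in 4P, 90 to 105 min in WT and their strain difference at 90 to 105 min. Without the arrays of slide 1, added after the data were seen, 1 gene passed for the interaction, 2 at 45 min and 1 for the strain difference from 75 to 105 min. The causes were not tested.

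On leaving out each array in turn, the count ran from 1 to 4 for the interaction, 0 to 1 at 15, 60 and 75 min, 0 to 3 at 45 min and 3 to 5 at 105 min. It ran from 3 to 6 for WT from 0 to 30 min, 0 to 1 for WT and 0 to 5 for the strain difference from 75 to 105 min, 3 to 5 in WT and 1 to 4 in 4P from 30 to 45 min, and 0 to 1 for the strain difference from 90 to 105 min. A lone array in a group was assumed to vary like the other groups, and its dye effect no longer cancels. Counts over all genes moved by more than 1.5 times, to between 1 and 189 at 15 min (7), 2 and 141 at 30 min (6), 2 and 20 at 45 min (10), 4 and 56 at 60 min (28), 6 and 999 at 75 min (309), 0 and 41 at 90 min (2), 5 and 84 at 105 min (23), 0 and 99 at 0 min (7), 0 and 41 for the interaction (5), 0 and 644 for the course mean (1) and 2 and 223 for the strain difference from 75 to 105 min (23). For steps within a strain they moved to between 494 and 1083 from 0 to 30 min (711), 424 and 1030 from 30 to 60 min (720), 220 and 528 from 30 to 45 min (312) and 117 and 226 from 90 to 105 min (147) in WT, and to between 359 and 813 from 30 to 45 min (495), 573 and 2027 from 75 to 105 min (1359) and 133 and 411 from 90 to 105 min (243) in 4P. The strain differences of the steps from 30 to 60 and from 90 to 105 min went from 0 to at most 2 and 3. Across settings the 105 min differences ran from -1.97 to -1.63 for MCM7, -1.69 to -1.24 for MCM5, -1.44 to -1.03 for MCM2 and -1.32 to -0.90 for MCM4. With 2 arrays per group, the SE of the fit limits what single genes can show, and signal over background does not, since all 8 genes were well above background on every array.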
